A study of Homo sapiens with 6 samples.

Results

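The NOTCH receptors NOTCH1, NOTCH2 and NOTCH3 and 7 genes known as NOTCH targets (HES1, HES4, HEY1, DTX1, NRARP, PTCRA and SHQ1) were followed in cap-immunoprecipitated RNA. Their probes were taken by gene name, and these 10 genes had 14 of the 50586 probes measured on every array. The RNA came from MOLT-4 cells, an established line from a T-cell acute lymphoblastic leukaemia that is known to carry activating NOTCH1 mutations. The cells had been transfected with an empty vector (mock, 3 arrays) or with NUDT16 (3 arrays), whose product removes caps from RNA. In each immunoprecipitation 20 μg of total RNA was used, and RNA with m3G or m7G caps was recovered and hybridised to a 1-colour Agilent array. The comparison asks whether transcripts lose or gain signal in the cap-bound fraction when NUDT16 is supplied. Input RNA was not analysed here, so abundance and capping of a transcript cannot be told apart, nor can fewer expressing cells and less RNA per cell.

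NOTCH proteins are surface receptors that are cleaved when a neighbouring cell presents a Delta or Jagged ligand. The released intracellular part enters the nucleus, binds RBPJ together with MAML co-activators, and switches on targets such as the HES and HEY repressors. In developing T cells this pathway directs the choice of the T lineage, and its activation by mutation is a hallmark of T-cell acute lymphoblastic leukaemia.

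What the array reads for the receptors and for HES1 is shown by the probes themselves. The sequences of 3 probes were read from the deposited array files. That these 3 lie in coding sequence rests on general knowledge of the genes and on an open reading frame. The 3 letters of a stop codon are in capitals where a probe ends on one.
NOTCH1 A_33_P3370424: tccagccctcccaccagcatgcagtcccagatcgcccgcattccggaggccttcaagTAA
NOTCH2 A_33_P3258824: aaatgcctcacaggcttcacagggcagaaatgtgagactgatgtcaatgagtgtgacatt
HES1 A_23_P6596: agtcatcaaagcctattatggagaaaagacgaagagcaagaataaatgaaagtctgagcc
The NOTCH1 probe covers the last codons of the gene (chromosome 9, positions 139390523 to 139390582, hg19). The NOTCH2 probe starts at base 801 of its transcript (chromosome 1, positions 120539807 to 120539866) and is also assigned, by the array's accession list, to the partial duplicate NOTCH2NLA, so the signals of these genes cannot be separated there. The HES1 probe spans 188 bases of chromosome 3 (positions 193854276 to 193854463) although it is 60 bases long, so it bridges an intron. It lies in the part of HES1 that encodes the basic, DNA-contacting region. For the other probes only the genomic position is given, since no gene models on hg19 were used here.

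The upstream sequence of the receptors and targets was read for the RBPJ core motif TGGGAA. It was searched on both strands in the 250 bases before each gene's start (RefSeq, GRCh38.p14). Of the 10 genes, 8 are in the promoter table, and DTX1 and HEY1 are not. HES1 and HES4 held the motif, which is 2 of 8, and 20.8% of all 35116 promoters held it. HES1 held it at 2 places, 84 and 70 bases before the start, as 2.9% of all promoters did at several places. The stretches with a match, 30 bases each and with the motif in capitals, are shown because these genes are the textbook readout of NOTCH activity.
HES1, chr3:194136059-194136088, plus strand: tactgTGGGAAagaaagttTGGGAAgtttc
HES4, chr1:1000156-1000185, minus strand: ctggggcgagtgTGGGAAagaatgcggagc
A match describes letters in a window and not a bound site.

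Signals are given as log2 of the intensity divided by the array's own 75th percentile, or as plain intensity where a value is said to be in intensity units. A probe is called detected on an array where Agilent's software marked it as well above background. The arrays differed in detection, with 39.3 to 51.1% of 58717 spots for cell RNA detected on mock arrays and 42.3%, 14.6% and 52% on NUDT16 replicates 1, 2 and 3. On NUDT16 replicate 2 the 75th percentile was therefore a background value of 8.57 intensity units, against 91.7 to 359 on the other arrays. Probes at background therefore read high on that array's log2 scale, as with HEY1, which was at -0.93 there and at -5.68 to -4.12 on the other 5 arrays. T-lineage markers were detected on all 3 mock arrays for 16 of 19 genes, with 2 of 6 B-lineage, 0 of 5 myeloid, 1 of 4 erythroid, 2 of 5 epithelial and 0 of 5 fibroblast genes. Neither NUDT16 probe was detected on any array. A NUDT16P1 pseudogene probe (A_21_P0012400) was detected on 3 of 3 NUDT16 and 0 of 3 mock arrays. The other NUDT16P1 probe, A_24_P626981, was detected on no array, with 4 to 8.41 intensity units. Mock and NUDT16 arrays of the same number shared a slide, and the labels do not say whether replicates came from separate cultures, so p-values measure only the spread between these arrays.

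**Figure D1:**
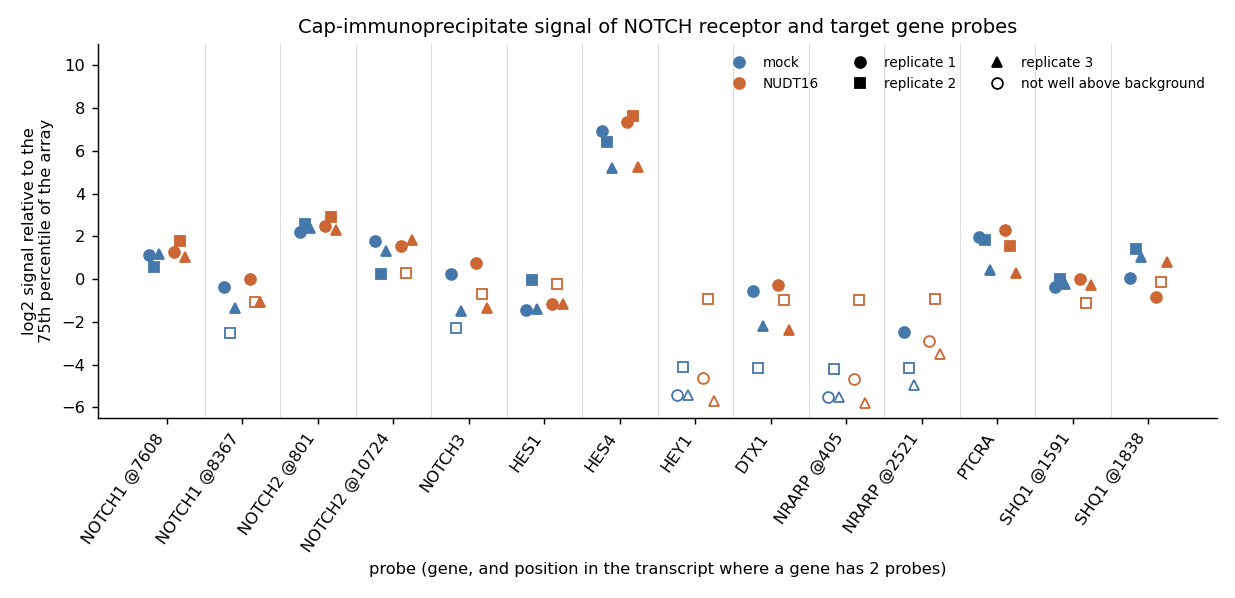
Log2 signal relative to the 75th percentile of each array for the 14 probes, by group (colour) and replicate number (shape), with open symbols for arrays where the probe was not well above background; @ gives a probe's position in its transcript. HES4 is bright on all 6 arrays, and HEY1 and the NRARP probe at 405 have open symbols only.

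Detection divided the genes into 3 sets. NOTCH1, NOTCH2, HES4 and PTCRA each had a probe detected on all 6 arrays, and HES1, SHQ1 and the second NOTCH2 probe were detected on all but NUDT16 replicate 2. NOTCH3, DTX1 and the second NOTCH1 probe were detected on both arrays of replicates 1 and 3 and on neither array of replicate 2. HEY1 was detected on no array, and NRARP on mock replicate 1 alone, by 1 of its 2 probes. A probe was tested where it was detected on all 3 arrays of a group, which held for 8 probes of 6 genes. Of these, 4 were detected on all 6 arrays, where 37.1% of all tested probes were, and the other 4 passed through the mock arrays only.

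Among the members 0 of 8 tested probes changed between NUDT16 and mock (limma, Benjamini-Hochberg adjusted over all 17765 probes). Of all tested probes 0.00563% did, the detected NUDT16P1 probe being the single call. At an unadjusted p under 0.05 there were also 0 of 8, against 0.0844% of all probes. The groups overlapped for all 8, while 1.37% of all tested probes had groups without overlap (0.332% with NUDT16 higher and 1.04% with mock higher). A difference of at least 1 log2 unit was reached by 0 of 8, against 6.97% of all. The median difference of the 8 was 0.11 and that of all tested probes was -0.017. The fitted difference was above 0 for 5 probes and below 0 for 3, and 51.2% of all tested probes were below 0. Without scaling, where the median of all probes shifts by -1.09, 8 of 8 were below 0. Every adjusted p in limma was 0.999 for these probes. Their median standard error of 0.64 on the log2 scale limited the size that this fit, which ignores the pairing, could detect. A fit that paired arrays by replicate number gave these probes a median standard error of 0.33, and 0 of 8 were called there too.

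NOTCH1, the receptor most often mutated in this leukaemia, read 1.15, 0.57 and 1.17 in mock replicates 1, 2 and 3 at its last-codon probe. It read 1.25, 1.78 and 1.03 in the NUDT16 arrays. On the scaled axis NUDT16 replicate 2 was the highest and mock replicate 2 the lowest, and the other 4 arrays lay within the range between them. In intensity NUDT16 replicate 2 was the lowest, with 29.3 units against 136 to 731 on the other arrays. The pair of replicate 2 differed by 1.21 scaled and -2.21 unscaled. The fitted difference was 0.39 (SE 0.58, 95% interval -0.86 to 1.63). Outside the pair of replicate 2 the arrays differed by 0.10 and -0.15, and replicates 1 and 3 alone gave -0.022. The second NOTCH1 probe, A_23_P60387 (base 8367 of the transcript, chromosome 9, positions 139389764 to 139389823), is printed in 10 spots per array. Its spots on mock replicate 1 ran from 194 to 238 intensity units, with an SD of 0.09 on the log2 scale. It read -0.35 and -1.37 in mock replicates 1 and 3 and 0.0 and -1.07 in the NUDT16 arrays of those numbers, a difference of 0.35 and 0.30 within the pairs.

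NOTCH2, a receptor better known from B cells and marginal zone development, read 2.19, 2.60 and 2.40 in mock at the probe shared with NOTCH2NLA. In NUDT16 arrays the values were 2.47, 2.89 and 2.28. The SD was 0.21 in mock and 0.31 in NUDT16 arrays (n = 3 each), with a difference of 0.15 (SE 0.57, 95% interval -1.07 to 1.37). The probe near the transcript's other end, A_23_P200792 (base 10724, chromosome 1, positions 120454858 to 120454917), read 1.76, 0.24 and 1.32 in mock arrays. It read 1.57, 0.27 and 1.85 in NUDT16 arrays, the middle value not well above background. Replicate 2 was the lowest array in each group at this probe. The difference was 0.12 (SE 0.66, 95% interval -1.31 to 1.55).

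NOTCH3, itself a receptor and a target of NOTCH1 in T-cell leukaemia, was measured on both arrays of replicates 1 and 3 (A_33_P3313055, chromosome 19, positions 15270489 to 15270548). It read 0.25 and -1.51 in mock and 0.75 and -1.37 in NUDT16 arrays. Within the pairs NUDT16 was higher by 0.50 and 0.15, while replicate 1 lay above replicate 3 by 1.77 in mock and 2.12 in NUDT16 arrays. On both arrays of replicate 2 it was at background (18.6 and 5.36 intensity units), and it was not tested.

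HES1, the basic helix-loop-helix repressor that is the classical NOTCH target, read -1.43, -0.05 and -1.38 in mock arrays. It read -1.17, -0.24 and -1.17 in NUDT16 arrays, the middle value not well above background. On the scaled axis the arrays of replicate 2 were the highest in each group, but in intensity they were the lowest. NUDT16 replicate 2 had 7.25 units, against 97.6 and 159 on the other NUDT16 arrays. Mock replicate 2 had 88.7 units, against 104 and 95.7 on the other mock arrays. The difference was 0.09 (SE 0.63, 95% interval -1.27 to 1.46). With both arrays of replicate 2 set aside, HES1 was higher by 0.26 and 0.21 in NUDT16 arrays on the scaled values. Unscaled these pairs differed by -0.097 and 0.74, so the pair of replicate 1 reversed.

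HES4, a related repressor, had the brightest spots among the members, with 34000, 7880 and 9050 intensity units in mock arrays. The NUDT16 arrays had 35700, 1700 and 13500 units (A_33_P3342628, chromosome 1, positions 934345 to 934404). On the scaled log2 axis these were 6.91, 6.43 and 5.18 in mock and 7.34, 7.63 and 5.23 in NUDT16 arrays. The difference was 0.56 (SE 0.75, 95% interval -1.06 to 2.18), and NUDT16 was higher on each of the 3 slides, by 0.43, 1.20 and 0.05. Of all tested probes 20.2% were higher in all 3 pairs, and unscaled the HES4 difference in the pair of replicate 2 was -2.22, on the array with the lowest signal. The difference was 0.064 without mock replicate 3, 0.11 without NUDT16 replicate 2 and 1.31 without NUDT16 replicate 3.

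HEY1, the third repressor of this group (A_32_P83845, chromosome 8, positions 80676312 to 80676371), stayed at background on all 6 arrays, with 4.5 to 8.99 intensity units. No fold is given for it.

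DTX1, a ubiquitin ligase that modulates NOTCH signalling and is induced by it, was measured on both arrays of replicates 1 and 3 (A_24_P290751, chromosome 12, positions 113535518 to 113535577). It read -0.55 and -2.18 in mock and -0.28 and -2.39 in NUDT16 arrays. The pairs differed by 0.27 and -0.21, in opposite directions. Replicate 1 lay above replicate 3 by 1.63 in mock and by 2.11 in NUDT16 arrays.

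NRARP, a small ankyrin repeat protein that feeds back on the NOTCH transcription complex, was near background. Its probe A_33_P3337272 (chromosome 9, positions 140194123 to 140194182) was detected on mock replicate 1 with 50.3 intensity units and on no other array. The other probe, A_33_P3337267 (positions 140196239 to 140196298) was detected nowhere, with 4.42 to 8.72 units.

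PTCRA, the pre-T-cell receptor alpha chain of immature thymocytes and a direct NOTCH target, read 1.97, 1.85 and 0.43 in mock arrays (A_33_P3229918, chromosome 6, positions 42893514 to 42893573). It read 2.29, 1.55 and 0.29 in NUDT16 arrays. Replicate 3 was the lowest array in each group, and the groups nearly coincided, with a difference of -0.037 (SE 0.70, 95% interval -1.54 to 1.46). Within the pairs the differences were 0.32, -0.30 and -0.14.

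SHQ1, an assembly factor for H/ACA small nucleolar ribonucleoproteins and a NOTCH1 target in T-cell leukaemia, had the largest difference among the tested members. Its probe A_24_P299996 (base 1838, chromosome 3, positions 72799378 to 72799437) read 0.05, 1.42 and 1.05 in mock and -0.84, -0.13 and 0.78 in NUDT16 arrays. NUDT16 replicate 2, at 7.82 intensity units, was not well above background. The difference was -0.90 (SE 0.65, 95% interval -2.31 to 0.50, limma adjusted p 0.999). On the scaled values NUDT16 was lower in 3 of 3 pairs, with differences of -0.89, -1.56 and -0.27. Being lower in 3 of 3 pairs held for 22.8% of all tested probes. Unscaled the pairs differed by -1.25, -4.97 and 0.25, so the pair of replicate 3 reversed. The probe entered the test through its detection on the 3 mock arrays. Blocking by replicate number gave a 95% interval of -1.75 to -0.06, which excludes 0. The unadjusted p in limma was 0.0393 in that fit and the adjusted p 0.482. This probe was the single member of 8 with an unadjusted p under 0.05 in that fit, against 7.96% of all tested probes. Over replicates 1 and 3 alone, with the block, its difference was -0.58 (limma unadjusted p 0.0264, adjusted p 0.177), again the single member of 8 below 0.05, against 21.6% of all. With 2 pairs, limma gave all 17765 probes the same SE of 0.26 in that fit, so its p-values do not reflect a probe's own spread.

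The second SHQ1 probe, A_33_P3236133, lies at base 1591 of the same transcript (chromosome 3, positions 72799625 to 72799684) and read -0.39, 0.01 and -0.23 in mock arrays. It read 0.02, -1.11 and -0.27 in NUDT16 arrays, the middle value again not well above background. Its difference was -0.25 (SE 0.59, 95% interval -1.52 to 1.02), with 0.41, -1.12 and -0.036 in the pairs. How the probes compare depends on the scaling, since this probe was at -1.43 with quantile normalization and -1.24 with the authors' deposited log2 values, where the probe at 1838 was at -0.86 and -1.16.

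**Figure D2:**
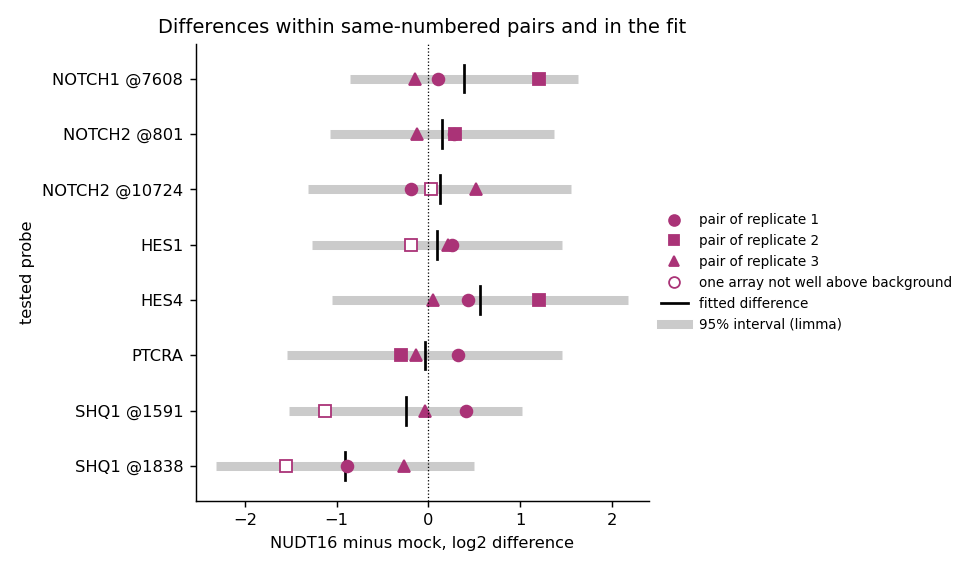
NUDT16 minus mock on the log2 scale for the 8 tested probes, with the 3 same-numbered pairs as symbols (open where an array was not well above background), the fitted difference as a black tick and its 95% interval from limma as a grey bar. Every interval, from the fit without the replicate block, includes 0, and the SHQ1 probe at 1838 has its 3 pairs below 0.

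Because the ratio of probes of the same gene on the same array is free of the scaling between arrays, it was compared between groups for NOTCH1, NOTCH2 and SHQ1, a comparison chosen after the data were seen. NRARP also has 2 probes, but no array detected both, so its ratio was not tested. For NOTCH1, the upstream probe exceeded the downstream probe by 1.5, 3.1 and 2.54 in mock and by 1.25, 2.83 and 2.10 in NUDT16 arrays. For NOTCH2, whose probes lie 9923 bases apart in the transcript, the values were 0.42, 2.36 and 1.08 in mock and 0.89, 2.62 and 0.43 in NUDT16 arrays. For SHQ1 they were -0.44, -1.41 and -1.28 in mock and 0.86, -0.98 and -1.04 in NUDT16 arrays. The NOTCH1 and NOTCH2 ratios were largest on the arrays of replicate 2 in each group, where the downstream probe was at background on 1 or both arrays. The mean ratios differed between groups by -0.32 for NOTCH1, 0.026 for NOTCH2 and 0.66 for SHQ1, with exact two-sided permutation p of 0.7, 0.9 and 0.5, where 3 arrays against 3 cannot give less than 0.1. Adjusted over the 3 ratios each exact permutation p was 0.9. Within same-numbered pairs the NOTCH1 ratio differed by -0.25, -0.27 and -0.45, and the SHQ1 ratio by 1.3, 0.43 and 0.23. Each had the same direction on all 3 slides, but the pair of replicate 2 rests on background values. NUDT16 replicate 2 detected neither SHQ1 probe (3.97 and 7.82 intensity units). The downstream NOTCH1 probe was undetected on both arrays of replicate 2. The NOTCH2 ratio differed by 0.47, 0.26 and -0.65. The exact paired permutation test (two-sided, signs of the pairs) gave 0.25 for NOTCH1 and SHQ1, the smallest p that 3 pairs allow, and 1 for NOTCH2, or 0.375, 0.375 and 1 after adjustment over the 3 ratios.

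Replicate number separated several members. Over the 4 arrays of replicates 1 and 3, which detected 11 of the 14 probes, replicate 1 exceeded replicate 3 by 1.94 for NOTCH3, 1.92 for HES4, 1.87 for DTX1 and 1.76 for PTCRA, as means of both groups. The NOTCH1 probe at 8367 was higher in replicate 1 by 1.04, and the SHQ1 probe at 1838 was lower, at -1.31. These 6 of 11 probes moved by at least 1 log2 unit between replicates, as did 43.8% of all 18769 probes detected on these arrays. HES1 differed by -0.049 in mock and -0.0036 in NUDT16 arrays. The NOTCH1 probe at 7608 (-0.026 and 0.22), the NOTCH2 probes at 801 (-0.21 and 0.19) and 10724 (0.44 and -0.27) and the SHQ1 probe at 1591 (-0.16 and 0.29) differed in opposite directions in mock and NUDT16 arrays. For 7 of 11 probes the replicate difference was larger in size than the NUDT16 difference over the same arrays, against 89.1% of all probes, and for 7 of 11 it had the same sign in both groups, against 87.1% of all. Slide and scan follow the replicate number, so they cannot be told apart from sample preparation. The median size of the NUDT16 difference was 0.19 for the 11 probes and 0.26 for all.

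**Figure D3:**
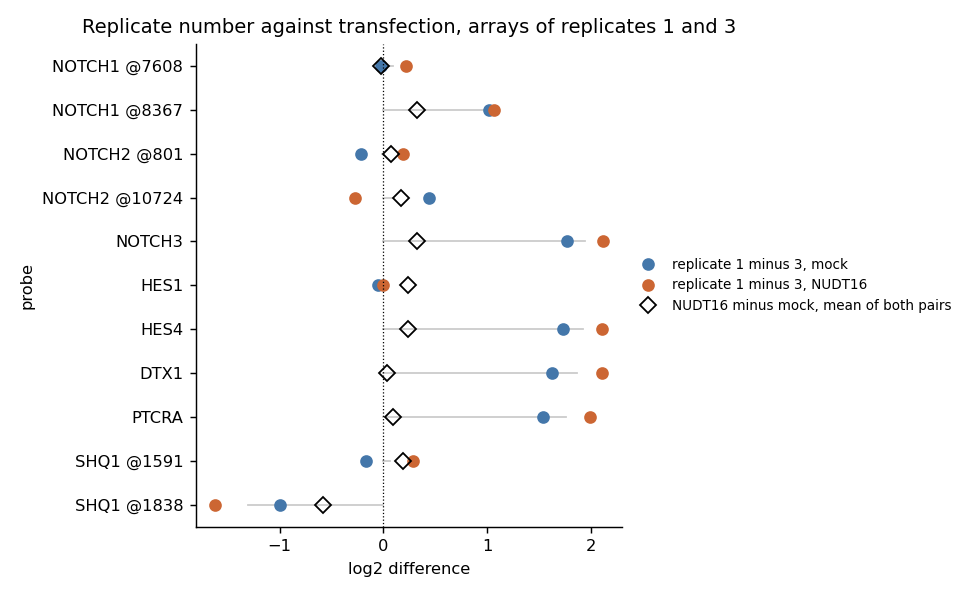
Log2 difference of replicate 1 minus replicate 3 in mock and in NUDT16 arrays (filled circles) for the 11 probes detected on these 4 arrays, with NUDT16 minus mock averaged over both pairs as open diamonds; grey lines run from 0 to the mean of both groups. NOTCH3, HES4, DTX1 and PTCRA lie between 1.54 and 2.12 in both groups, and their diamonds lie between 0.03 and 0.32.

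The NOTCH1 probe at 7608 was set against the other genes detected on all 6 arrays by the root mean square difference of log2 signals, each centred on its own mean. Of 5344 genes, CISD3, XLOC_001414 and LOC100144604 were the most like it, with 0.12, 0.13 and 0.13 log2 units, and the median gene lay at 0.78. The measure rests on 6 arrays.

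The rest of the Notch pathway was read from a list of 76 genes ordered by role, of which 51 had a tested probe. Of these 51 genes 0 changed in limma, 0 had an unadjusted p under 0.05, 26 lay above and 25 below 0, and the median was 0.04 against -0.017 for all tested probes. With the replicate block 0 were called in limma and 9 (17.6%) had an unadjusted p under 0.05, where 7.96% of all tested probes did. Over replicates 1 and 3 alone 18 (35.3%) did, against 21.6%. All 5 ligand genes, DLL1, DLL3, DLL4, JAG1 and JAG2, were undetected on every array. NOTCH4, the remaining receptor, was detected on 5 arrays with a difference of 0.43 (SE 0.69). Among glycosyltransferases, which modify the receptors' extracellular part, MFNG differed most, with 0.71 (SE 0.76).

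Of the enzymes that cut the receptors, ADAM10, the metalloprotease of the first cut, had the largest difference. It read 0.22, 3.07 and 3.31 in mock and -0.65, 0.15 and 2.81 in NUDT16 arrays, with NUDT16 replicate 2 not well above background. The difference was -1.43 (SE 0.97), and over replicates 1 and 3 it was -0.68. Unscaled, the ADAM10 pair of replicate 3 differed by 0.026. The 4 γ-secretase genes NCSTN, APH1A, APH1B and PSENEN lay at 0.62, 0.36, 0.47 and 0.48, with the groups overlapping for each. These subunits were named after their values were seen, and NCSTN and APH1B were not well above background on NUDT16 replicate 2.

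RBPJ, the DNA-binding partner of cleaved NOTCH, read 3.30, 3.94 and 4.87 in mock and 2.58, 1.40 and 4.49 in NUDT16 arrays, the middle value not well above background, with a difference of -1.21 (SE 0.79). CIR1, a co-repressor that joins RBPJ to histone deacetylases, differed by -1.10 (SE 0.79), and CCNC, the cyclin that marks nuclear NOTCH for turnover, by -1.40 (SE 0.88). The groups overlapped for these 3 genes, and CIR1 and CCNC, at 14.5 and 9.91 intensity units, were also not well above background on NUDT16 replicate 2. Over replicates 1 and 3 the differences were -0.55 for RBPJ, -0.77 for CIR1 and -0.26 for CCNC. Unscaled, the pair of replicate 3 differed by 0.13 for RBPJ, -0.30 for CIR1 and 0.38 for CCNC. On the scaled values SNW1, a nuclear co-factor of RBPJ, was the single gene of the 51 (1.96%) whose groups did not overlap. Of all tested probes 1.37% had such groups. SNW1 read 3.07, 3.46 and 3.39 in mock and 2.32, 2.11 and 3.03 in NUDT16 arrays. The difference was -0.82 (SE 0.58, limma adjusted p 0.999). In intensity the groups overlapped, with 2360, 1010 and 2610 units in mock and 1100, 37.1 and 2930 in NUDT16 arrays. Unscaled, its pair of replicate 3 differed by 0.17. SNW1 was singled out after its values were seen.

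Of the other targets TRIB2, a pseudokinase that NOTCH induces in leukaemia, had the largest difference. It read 1.01, -0.94 and -1.05 in mock and 1.86, 1.29 and -0.22 in NUDT16 arrays, NUDT16 replicate 2 not well above background. The difference was 1.30 (SE 0.75, limma adjusted p 0.999). It was 0.85 and 0.83 in the pairs of replicates 1 and 3. In the pair of replicate 2, with the NUDT16 array at background, it was 2.23 scaled and -1.19 unscaled. Of all tested probes 20.2% were higher in all 3 pairs, as TRIB2 was on the scaled values. In the fit of replicates 1 and 3 alone with the replicate block it was 0.84 and passed the threshold (limma adjusted p 0.0476), where 2.83% of all tested probes passed. KDM5A, a histone demethylase that acts with RBPJ as a co-repressor, was also called in that fit, but at 8.34 intensity units on NUDT16 replicate 1 it was at background, so the size of its difference was not measured.

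**Figure D4:**
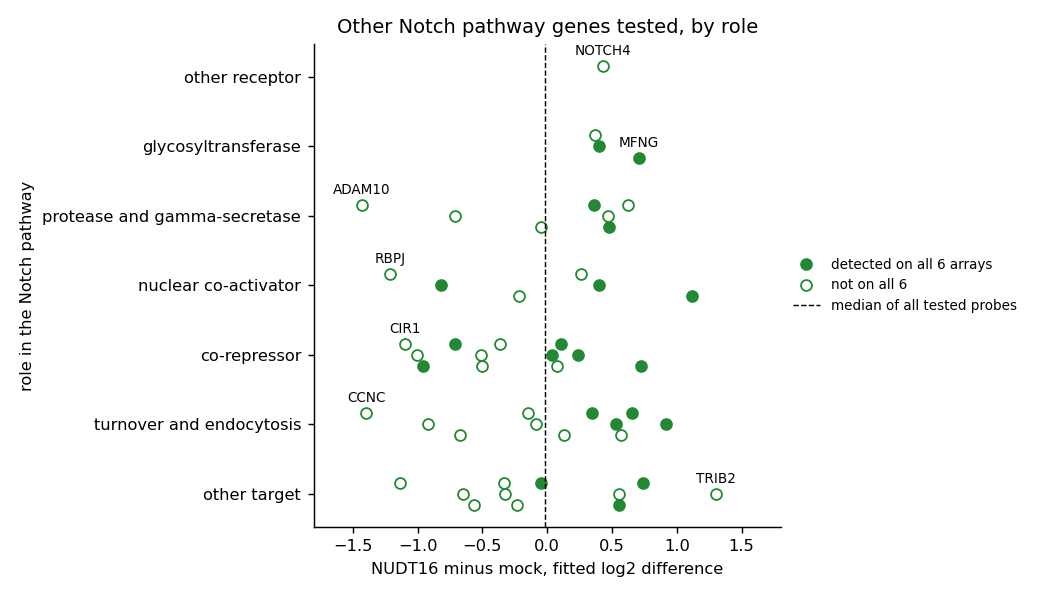
Fitted NUDT16 minus mock difference on the log2 scale for the 51 tested genes of the Notch pathway list, 1 probe per gene, by role, with filled circles for genes detected on all 6 arrays and a dashed line at the median of all tested probes. The genes with the largest difference in each role are named, from ADAM10 at -1.43 to TRIB2 at 1.30, and the roles spread to either side of the line except the 3 glycosyltransferases and NOTCH4.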

How the data were processed

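The deposited scanner files give a linear intensity for each spot, made with Agilent Feature Extraction 10.7.3.1 on design 039494 with coordinates on hg19, per the file headers. Those headers record background subtraction, spatial detrending and surrogate values for dim spots. A deposited table of log2 values, for which the submitters' processing notes name limma without giving its steps, served as an alternative.

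Control and outlier spots were left out, log2 processed intensity was shifted by each array's 75th percentile, and spots of a probe were averaged. Of 50586 probes, 17765 were detected (more than 50% of usable spots well above background) on all 3 arrays of a group and tested with limma 3.58.1 in R 4.3.3 (two-sided, Benjamini-Hochberg, threshold 0.05, no block). All tested pathway genes stand by their brightest probe.

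Mock and NUDT16 arrays of one number share a slide and a scan, and their deviations from their group's mean had correlations of 0.84, 0.39 and 0.77, so the numbers pair the arrays. Pathway genes were named as the largest difference in each role, plus any called gene, and NOTCH1's nearest genes as the 3 of smallest distance. The members and lists were chosen with earlier results of these data known.

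Alternatives were normexp (offset 50), quantile, median and detected-probe scaling, no scaling, other filters, a trended robust prior, array weights, the value table, the replicate block, replicates 1 and 3 alone, and leaving out each array. The number of arrays limits the precision.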

Additional observations from a re-analysis of the deposited data

How the results depend on the processing

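The count of 0 called members held under all 19 other settings, and the adjusted p of a tested member ranged from 0.177 to 1 in limma. The replicate block changed no call of a member or pathway gene. It left 1 probe called among all, and so did its combination with scaling over detected probes, which was chosen after the data were seen. The count of 1 among all probes fell to 0 with the value table, normexp, no scaling, no filter and detection required on all 6 arrays (in limma 10, 11, 1, 225 and 2 probes at an unadjusted p under 0.05). It was 503 for replicates 1 and 3 with the replicate block, where 2 pathway genes were called, and 1 when any array was left out. All 17765 probes had the same SE of 0.26 in the fit of replicates 1 and 3. Requiring detection on all 6 arrays removes the called NUDT16P1 probe, detected on 0 of 3 mock arrays, so the count there could not include it. The cause of the other changes in count was not tested.

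Scaling moved the median of all probes by -1.09 when omitted, -0.71 as a median shift, -0.20 as quantile normalization and -0.19 in the value table. Of 148 values for members 30 reversed in sign, none past the threshold. With the median shift NOTCH1 at 7608 was at -0.32, NOTCH2 at -0.56 (801) and -0.59 (10724), HES1 at -0.62, HES4 at -0.15, NOTCH4 at -0.28 and MFNG at -0.0041. Without scaling these were -0.70, -0.94, -0.96, -0.99, -0.52, -0.65 and -0.38. Relative to all probes both settings leave the members' median at 0.13, as in the reported fit. Normexp gave -0.27 for NOTCH2 (801) and -0.23 for HES4. PTCRA was at 0.046 with quantile normalization, 0.21 with array weights, 0.037 with the value table and 0.093 for replicates 1 and 3, where NOTCH1 was at -0.022 and SHQ1 (1591) at 0.19. Array weights put HES1 at -0.0048.

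Leaving out an array gave -0.024 to 0.28 for NOTCH2 (801), -0.31 to 0.60 for NOTCH2 (10724), -0.22 to 0.55 for HES1, -0.53 to 0.50 for PTCRA, -0.48 to 0.081 for SHQ1 (1591) and -0.19 to 1.002 for NOTCH4. Without sign changes it gave 0.18 to 0.55 for NOTCH1 (7608), 0.0081 to 1.28 for MFNG, -2.45 to -0.72 for ADAM10, -2.05 (without NUDT16 replicate 3) to -0.50 (without NUDT16 replicate 2) for RBPJ, -1.84 (without mock replicate 1) to -0.39 (without mock replicate 2) for CIR1, -2.26 to -0.78 for CCNC and 0.86 to 1.97 for TRIB2. The fitted difference of the SHQ1 probe at 1838 kept its sign throughout, from -1.33 to -0.52 with an array left out and -1.99 without scaling. Unscaled, its pair of replicate 3 differed by 0.25.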
